A study of Rattus norvegicus with 4 samples.

Results

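The mast cell protease genes are the genes for the proteolytic enzymes that mast cells store in their granules. They were taken by symbol: Cpa3, Cma1 and every symbol that begins with Mcpt, Tpsa or Tpsb, a rule set with earlier results of these data known. This rule found 5 of 18957 genes and UniGene-type entries in the count tables of rat footpad skin: Cpa3 (gene ID 54242), Mcpt1l1 (100360872), Cma1 (25627), Tpsab1 (54271) and Tpsb2 (29268). The skin came from the hindlimb footpads of Sprague Dawley rats in a model of radiation dermatitis, and 1 library stood for each of collection days 0, 3, 6 and 9. Day 0 is the baseline without irradiation in the protocol. By the protocol 10 Gy of 9 MeV electrons was delivered at 500 cGy/min on days 1, 2, 4 and 5, so that day 3 skin had received 2 irradiations and day 6 and day 9 skin 4. The sample descriptions differ from this in places, since the day 0 description gives day 1 for collection and the others name a single irradiation day each (days 2, 4 and 5). The sample titles were followed here. The labels give no sex, age or number of animals, and no library had a replicate, so no test across animals was possible.

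Mast cells of rodent skin are of the connective tissue type. Their granules hold chymases, tryptases and carboxypeptidase A3, packed by charge onto heparin chains of the proteoglycan serglycin, and these enzymes are released together with histamine when the cell is activated. Many chymases, though not all, cut after large hydrophobic residues, and chymases act on peptides and matrix proteins. Tryptases cut after lysine or arginine and can activate the receptor PAR2, and carboxypeptidase A3 removes residues from the carboxyl end. Transcripts of these genes serve as marks of mast cells in whole tissue. In a bulk sample, fewer cells of a type and less RNA per cell cannot be told apart.

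Transcripts were counted by a 21-base tag that opens with CATG and lies toward the 3' end, so a count is per transcript and needs no scaling by length. Totals of 1982608, 1968034, 1967902 and 1952921 tags were assigned to genes on days 0, 3, 6 and 9. Ratios were taken between counts scaled by library size, later day over earlier day, and each is given with an exact 95% interval that covers counting error only. A gene was called higher or lower where its ratio was at least 2-fold, the higher library had at least 50 counts and the interval excluded 1. The same rule was applied to all genes.

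Each of the 5 genes was read almost entirely through the tag nearest its 3' end, except Cma1. The tags are shown because the counts below are copies of these sequences, with the CATG anchor in capitals.
Cpa3, first site from the 3' end: CATGaagtcctgcattatttt
Mcpt1l1, first site: CATGgtattgtatcttatgga
Mcpt1l1, site 3: CATGttactgaagcttcaaaa
Cma1, first site: CATGggatctggcctgtctgt
Cma1, second site: CATGttactgaagttgaagga
Tpsab1, first site: CATGctgctttctgcctccct
Tpsb2, first site: CATGctgtgtgctggaaatac
The first-site tag carried 100% of the Tpsab1 and Tpsb2 counts, 98.9% of those of Cpa3, 98.4% of those of Mcpt1l1 and 83.9% of those of Cma1, summed over the 4 libraries. The first-site tags of the 2 tryptase genes differed at 10 of the 17 bases after the anchor, and those of Mcpt1l1 and Cma1 at 11 of 17. The second-site tag of Cma1 and the site 3 tag of Mcpt1l1 share their first 13 bases and then differ. Mcpt1l1 had 1 further tag of at least 10 copies, at the fifth site, with 1, 4, 2 and 4 copies in the tag lists of days 0, 3, 6 and 9.

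The families are clustered in the genome, which bears on how far a tag can be tied to 1 gene. In the RefSeq gene table of assembly GRCr8, used here for names and gene order, 16 genes carry a symbol that fits the rule, and all 5 genes measured here were found in it by gene ID. Of these 16, 13 lie on chromosome 15, where Cma1 and Mcpt1l1 are separated by 23 annotated genes and Mcpt1l1 stands between Mcpt1 and Mcpt10. Tpsab1 and Tpsb2 are direct neighbours on chromosome 10, and Cpa3 is the only one of the 16 on chromosome 2. The other 10 protein-coding genes of the family on chromosome 15, among them Mcpt1, Mcpt4, Mcpt8 and Mcpt10, had no row in the 4 tables. The files describe the Mcpt1l1 row as mast cell protease 1, the chymase rMCP-1. Transcript sequences were not used here, so whether close paralogs share the tags of these genes was not checked. The Mcpt1l1 count is uncertain as that of a single gene, and so are the copies of the second-site tag of Cma1.

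Carboxypeptidase A3, the zinc exopeptidase of the granule, showed the widest range. Cpa3 had 98, 376, 178 and 221 counts on days 0, 3, 6 and 9. Day 3 was the highest and day 0 the lowest library, with day 9 above day 6, and no 2 neighbours in this order had a ratio whose interval included 1. Among the chymases, Mcpt1l1 had 209, 367, 223 and 295 counts. It kept the order of days seen for Cpa3, but days 6 and 0 did not differ beyond counting error. Cma1, the chymase that the files describe as mast cell protease 5, had 84, 109, 46 and 35 counts with both tags counted. Days 3 and 0 were then above days 6 and 9, with neither pair apart within itself. Its first-site tag alone had 43, 109, 43 and 35 copies, and by it day 3 was 2.5-fold (1.76 to 3.68) above day 0. Of the tryptases, which act as heparin-bound tetramers, Tpsab1 had 52, 140, 76 and 92 counts. Its order of days was again that of Cpa3, with days 9 and 6 not apart. Tpsb2 had 82, 81, 50 and 48 counts and was the only gene of the 5 with its highest scaled count on day 0, which it nearly shared with day 3.

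**Figure D1:**
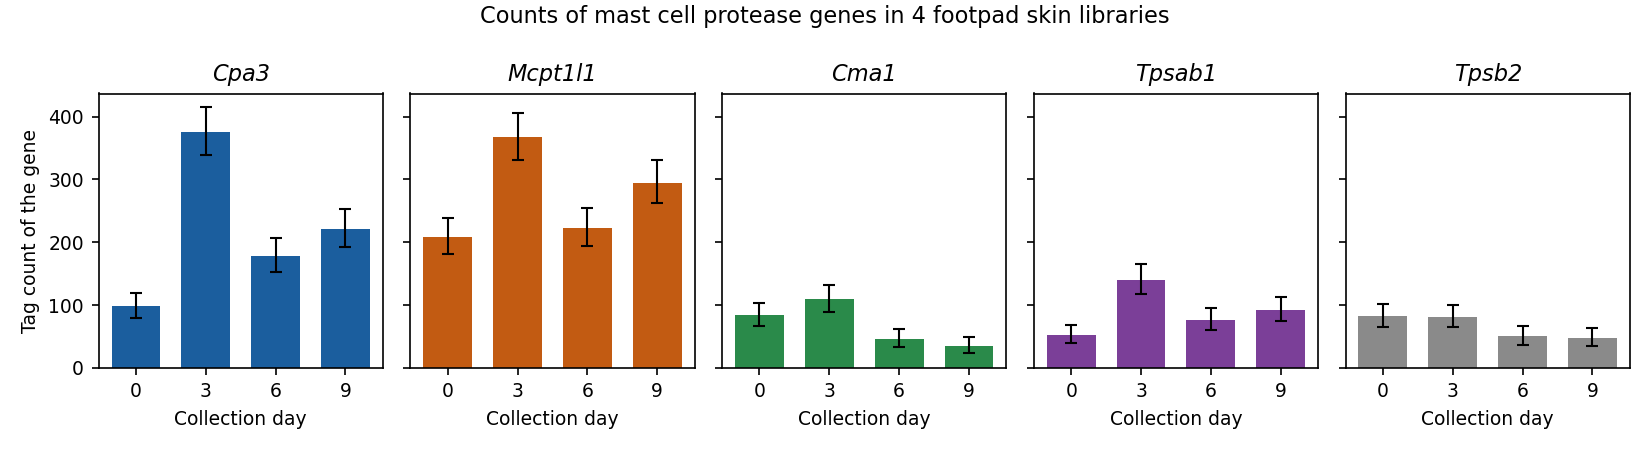
Tag counts (vertical axis) of the 5 mast cell protease genes by collection day (horizontal axis), 1 library a day, with exact 95% Poisson intervals of the count as bars. Cpa3, Mcpt1l1 and Tpsab1 peak on day 3 at 376, 367 and 140 counts, while Tpsb2 has 82, 81, 50 and 48.

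Day 3 skin, set against day 0, shows the proteases after 2 of the 4 irradiations. Cpa3 and Tpsab1 were called higher, none was called lower, and the summed count of the 5 genes was 1073 on day 3 against 525 on day 0, 2.03-fold (1.83 to 2.26) higher. Over all 5342 genes with enough counts, 8.54% were called higher and 7.88% lower in this comparison. Cpa3 was 3.80-fold (3.05 to 4.82) higher and Tpsab1 2.66-fold (1.94 to 3.76) higher. Mcpt1l1 was 1.75-fold (1.47 to 2.08) higher, short of the rule. Cma1 was 1.29-fold (0.962 to 1.74) higher and Tpsb2 had a ratio of 0.983 (0.714 to 1.35), so neither differed beyond counting error. By its first-site tag alone, however, Cma1 was 2.5-fold (1.76 to 3.68) higher and would be called. The median log2 ratio of the 5 genes was 0.80, against -0.05 over all genes with enough counts.

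Day 6 skin, set against day 0, was taken after all 4 irradiations. None of the 5 genes passed the rule in either direction, while 7.48% of all 5296 genes were called higher and 13.1% lower. Cpa3 was 1.87-fold (1.45 to 2.42) higher and Tpsab1 1.5-fold (1.04 to 2.18) higher. Mcpt1l1 had a ratio of 1.10 (0.905 to 1.33). Cma1 was 1.77-fold (1.22 to 2.60) lower with both tags counted, while its first-site tag alone had a ratio of 1.03 (0.659 to 1.61). Tpsb2 was 1.59-fold (1.11 to 2.31) lower. The 5 genes summed to 573 counts on day 6 and 525 on day 0, and their ratio of 1.12 (0.996 to 1.27) included 1. The median log2 ratio of the 5 genes was 0.14, against 0.03 over all genes with enough counts.

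In the comparison of day 9 with day 0, Cpa3 was called higher and Cma1 lower, against 10.7% of all 5345 genes called higher and 10.4% called lower. Cpa3 was 2.36-fold (1.86 to 3.03) higher. Tpsab1 was 1.85-fold (1.31 to 2.66) higher and Mcpt1l1 1.48-fold (1.24 to 1.78) higher. Cma1 was 2.27-fold (1.52 to 3.50) lower with both tags counted. That call is not made from the first-site tag alone, which gave 1.17-fold (0.732 to 1.88) lower. Tpsb2 was 1.62-fold (1.13 to 2.37) lower. The summed count of 691 on day 9 against 525 on day 0 was 1.38-fold (1.23 to 1.55) higher, and the median log2 ratio was 0.57, against -0.01 over all genes with enough counts. These 3 comparisons share the day 0 library.

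**Figure D2:**
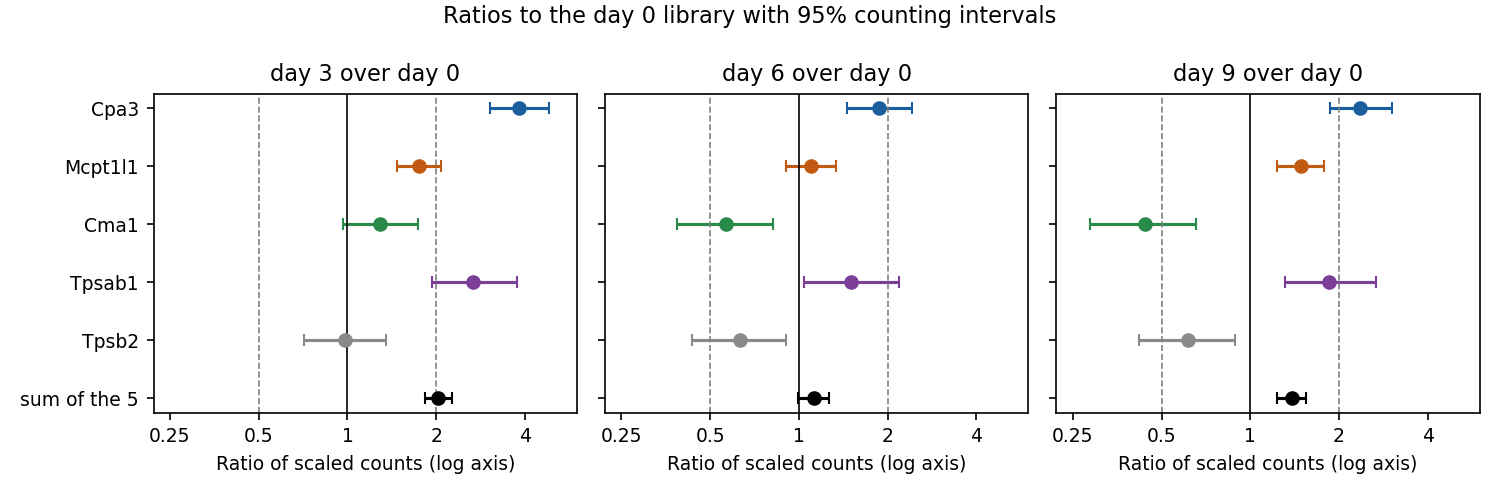
Ratios of scaled counts, later day over day 0 (horizontal axis, logarithmic), for the 5 genes and their sum, with 95% counting intervals and dashed lines at 2-fold. Cpa3 lies at 3.80, 1.87 and 2.36 in the 3 panels, and Cma1 and Tpsb2 lie below 1 on days 6 and 9.

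Between the later libraries, the proteases were lower on day 6 than on day 3, and those of days 9 and 6 lay closer together. On day 6 against day 3, Cpa3 was 2.04-fold (1.70 to 2.45) lower and Cma1 2.28-fold (1.61 to 3.31) lower, and both were called. In this comparison 6.74% of 5101 genes were called lower and 2.88% higher. The other 3 genes were also lower, Mcpt1l1 by 1.59-fold (1.34 to 1.89), Tpsab1 by 1.77-fold (1.34 to 2.39) and Tpsb2 by 1.56-fold (1.09 to 2.27). On day 9 against day 6 none of the 5 passed the rule, while 10.0% of 5127 genes were called higher and 4.37% lower. The intervals of Mcpt1l1, 1.35-fold (1.13 to 1.61) higher, and Cpa3, 1.27-fold (1.03 to 1.55) higher, excluded 1. On day 9 against day 3, Cma1 alone was called, 2.92-fold (2.00 to 4.45) lower, where 4.59% of 5165 genes were called lower and 6.41% higher. The summed count was 691 on day 9 against 1073 on day 3, 1.47-fold (1.34 to 1.62) lower.

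Cma1 was the exception in how its transcripts were read. The first-site tag of Cma1, printed above, had 43, 109, 43 and 35 copies on days 0, 3, 6 and 9, and the second-site tag had 41, 0, 3 and 0 assigned copies. Only the day 0 library therefore held both tags at similar numbers. The second-site tag made up 48.8% (37.7 to 59.96, exact Clopper-Pearson) of the Cma1 count on day 0 and 6.52% (1.37 to 17.9) on day 6. On day 3 it had 0 of 109 counts, for which the exact interval reaches 3.33% and a floor of 3 counts 2.75%. On day 9 it had 0 of 35, for which the exact interval reaches 10.003% and the floor 8.57%. With that floor for each library, the second-site tag was at least 13.7-fold lower on day 3 and at least 13.0-fold lower on day 9 than on day 0. These values leave out the counting error of the 41 day 0 copies, and the exact intervals of the ratios, which include it, reach 10.7-fold and 10.1-fold lower. In the lists of all sequenced tags it had 1 copy on day 9, below the 2 copies that the gene tables need, and 0 on day 3.

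The ratios of Cma1 to day 0 change with the tags counted. By the first-site tag alone, Cma1 was 2.5-fold (1.76 to 3.68) higher on day 3 than on day 0 and would be called higher. On day 6 its ratio was 1.03 (0.659 to 1.61), and on day 9 it was 1.17-fold (0.732 to 1.88) lower, so that the call of lower on day 9 was not made. Comparisons among the later days moved little, with the first-site tag 2.43-fold (1.71 to 3.57) lower on day 6 than on day 3 and 2.92-fold (2.00 to 4.45) lower on day 9 than on day 3. Whether the second-site tag came from Cma1 transcripts alone was not checked, and what sets its number in the day 0 library was not tested.

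**Figure D3:**
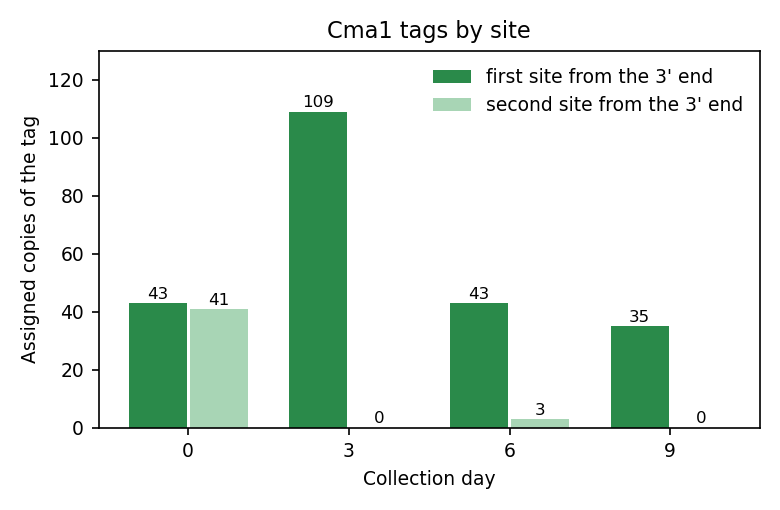
Assigned copies (vertical axis) of the 2 Cma1 tags by collection day (horizontal axis), with the tag at the first CATG site from the 3' end in dark green and that at the second site in light green. The second-site tag has 41 copies on day 0 and 0, 3 and 0 later, while the first-site tag has 43, 109, 43 and 35.

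The makeup of the protease count moved with the days as well. Within a library this does not depend on the scaling between libraries. Cpa3 made up 18.7% (15.4 to 22.3) of the summed count on day 0, and then 35.0% (32.2 to 38.0), 31.1% (27.3 to 35.0) and 32.0% (28.5 to 35.6) on days 3, 6 and 9. Its share was above that of day 0 in each later library by more than counting error, and the later libraries overlapped among themselves. Mcpt1l1 held 39.8, 34.2, 38.9 and 42.7%, with overlapping intervals between day 0 and each later day, which does not show equal shares. Its intervals on day 3 (31.4 to 37.1) and day 9 (39.0 to 46.5) did not overlap. Tpsb2 held 15.6% (12.6 to 19.0) on day 0 and between 6.95 and 8.73% afterwards. Cma1 held 16% (13.0 to 19.4) on day 0 and 5.07% (3.55 to 6.97) on day 9, and Tpsab1 between 9.90 and 13.3% throughout. With the first-site tag of Cma1 alone, its share was 8.88% (6.50 to 11.8) on day 0 and 5.07% on day 9, and that of Cpa3 on day 0 was 20.2% (16.8 to 24.1), a setting chosen after the data were seen. Ordered by count within each library, Mcpt1l1 was highest on days 0, 6 and 9, while on day 3 Cpa3 and Mcpt1l1 were not apart. On day 0 Cpa3, Cma1 and Tpsb2 followed without differing beyond counting error, and Tpsab1 was lowest. The place of Cma1 in that order rests on its second-site tag, since by its first-site tag alone it had 43 counts, against 52 for Tpsab1. On days 6 and 9 the order was Mcpt1l1, Cpa3, Tpsab1, Tpsb2 and Cma1, with the last pair not apart.

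**Figure D4:**
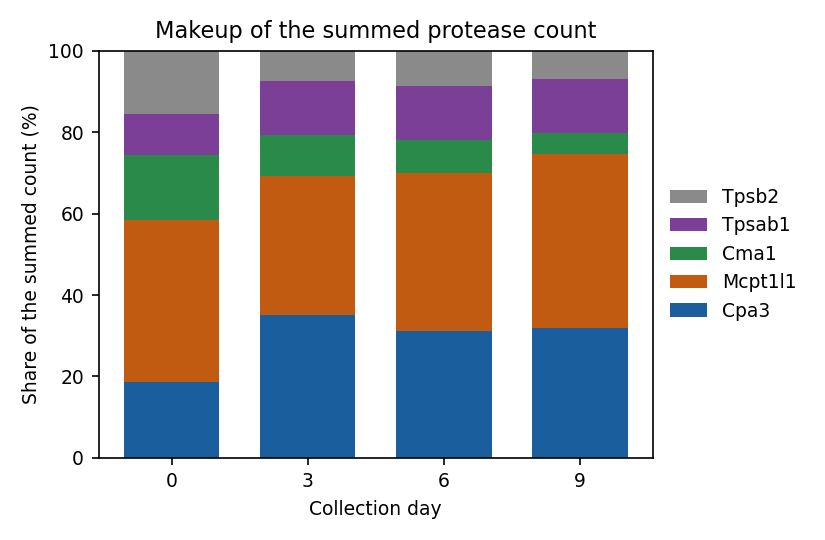
Share of each gene in the summed count of the 5 mast cell protease genes (vertical axis, percent) by collection day (horizontal axis). Cpa3, at the base of each bar, rises above its day 0 share of 18.7% to 35.0, 31.1 and 32.0%, and Tpsb2 at the top is 15.6% on day 0 and 6.95 to 8.73% later.

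The ratio of the 2 neighbouring tryptase genes differed between day 0 and each later library. There were 1.73 Tpsab1 counts for each Tpsb2 count on day 3, against 0.634 on day 0, an odds ratio of 2.72 (1.71 to 4.35). The odds ratio was 2.39 (1.41 to 4.07) on day 6 and 3.01 (1.79 to 5.10) on day 9, each against day 0. All of these share the day 0 library. Among the later days the intervals included 1. The odds ratio was 0.88 (0.548 to 1.42) on day 6 against day 3. It was 1.26 (0.742 to 2.14) on day 9 against day 6 and 1.11 (0.696 to 1.77) on day 9 against day 3. When all Cma1 tags were counted, the chymases also differed, with 8.43 Mcpt1l1 counts for each Cma1 count on day 9 against 2.49 on day 0, an odds ratio of 3.38 (2.16 to 5.38). On day 6 it was 1.95 (1.28 to 3.00), and on day 3 it was 1.35 (0.957 to 1.91), which includes 1. Against the first-site Cma1 tag alone the odds ratios were 0.693 (0.456 to 1.04), 1.07 (0.653 to 1.74) and 1.73 (1.04 to 2.89) on days 3, 6 and 9. Cpa3 and Tpsab1 stayed closer: the odds ratio of Cpa3 to Tpsab1 was 1.42 (0.945 to 2.13) on day 3, 1.24 (0.788 to 1.95) on day 6 and 1.27 (0.821 to 1.97) on day 9, all against day 0. Each of these intervals includes 1 and reaches to about 2.

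The sequence upstream of the start sites shows which of the 5 genes hold motifs that a search by letters can find. GATA factors, GATA2 above all, are known regulators of mast cell protease genes in rodents, and a TATA box places the start of transcription. The windows below hold the 250 bases before the annotated start of each gene in RefSeq (assembly GRCr8), 5' to 3' on the strand of the gene. Capitals mark a GATA motif (AGATAA or AGATAG or TGATAA or TGATAG) or a TATA box (TATAAA), each searched on both strands. The E-box (CANNTG, the same on both strands), read by MITF among other factors, was searched too and is not in capitals.
Cpa3, chr2:104673238-104673487, minus strand: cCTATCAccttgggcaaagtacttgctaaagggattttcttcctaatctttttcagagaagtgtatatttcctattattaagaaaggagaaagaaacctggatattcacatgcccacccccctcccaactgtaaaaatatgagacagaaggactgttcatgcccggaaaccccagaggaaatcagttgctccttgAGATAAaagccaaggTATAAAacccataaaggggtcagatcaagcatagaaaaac
Mcpt1l1, chr15:33876896-33877145, minus strand: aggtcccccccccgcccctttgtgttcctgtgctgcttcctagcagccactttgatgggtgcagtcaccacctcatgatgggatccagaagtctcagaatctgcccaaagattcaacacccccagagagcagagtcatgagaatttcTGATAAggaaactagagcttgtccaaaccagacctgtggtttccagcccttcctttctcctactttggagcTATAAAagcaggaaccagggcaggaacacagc
Cma1, chr15:33390134-33390383, minus strand: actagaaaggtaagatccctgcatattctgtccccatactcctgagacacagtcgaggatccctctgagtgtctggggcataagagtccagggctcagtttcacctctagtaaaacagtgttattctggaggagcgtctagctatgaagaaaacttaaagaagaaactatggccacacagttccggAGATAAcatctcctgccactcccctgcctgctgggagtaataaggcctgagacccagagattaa
Tpsab1, chr10:14867303-14867552, minus strand: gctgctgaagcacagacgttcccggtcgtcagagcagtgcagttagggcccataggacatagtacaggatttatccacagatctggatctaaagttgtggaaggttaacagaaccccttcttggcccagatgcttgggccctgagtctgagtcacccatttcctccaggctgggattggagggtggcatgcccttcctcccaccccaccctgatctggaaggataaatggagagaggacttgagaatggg
Tpsb2, chr10:14886060-14886309, plus strand: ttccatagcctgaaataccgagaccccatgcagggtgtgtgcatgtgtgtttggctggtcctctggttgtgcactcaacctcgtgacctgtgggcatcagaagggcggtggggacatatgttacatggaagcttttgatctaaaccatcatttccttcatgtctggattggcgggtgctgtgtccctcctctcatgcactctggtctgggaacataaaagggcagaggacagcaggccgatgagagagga
Cpa3 had 2 GATA motifs, which began 249 and 55 bases before the start, and a TATA box at 40 bases before it. Mcpt1l1 had a GATA motif at 103 and a TATA box at 32 bases before the start, and Cma1 a GATA motif at 64 bases. The windows of Tpsab1 and Tpsb2 held neither of these, and no GATA motif overlapped a TATA box in these windows. Of 33469 windows of this length in the same table, 27.0% held a GATA motif, 12.9% a TATA box and 65.5% an E-box. E-boxes numbered 3 in the Cpa3 window, 2 in that of Tpsb2, 1 in that of Tpsab1 and 0 in those of Mcpt1l1 and Cma1. A match describes letters and does not show binding. Of the genes with both a GATA motif and a TATA box, Cpa3 was called higher on day 3 against day 0. Mcpt1l1 was 1.75-fold (1.47 to 2.08) higher and was not called. Tpsab1, with neither, was called at 2.66-fold (1.94 to 3.76) higher. Whether these motifs bear on the counts was not tested.

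Other genes of mast cell biology were read from lists by role. Receptors and signalling genes were sparse: 8 of 12 had a row, 1 reached 50 counts, and that gene was called higher on days 3 and 9 against day 0. The share of all genes called higher was 8.54% on day 3 and 10.7% on day 9, and 1 gene cannot be read against it. The gene was Lyn, the kinase that starts signalling from the IgE receptor and is shared with other leukocytes. It had 26, 68, 46 and 58 counts, 2.57-fold (1.63 to 4.26) higher on day 3 and 2.32-fold (1.45 to 3.88) higher on day 9 than on day 0. Ms4a2, the beta chain of the IgE receptor, had 16, 25, 17 and 16 counts, and Fcer1a, its IgE-binding chain, had 2, 9, 3 and 6. Kit, the receptor for stem cell factor, had no row. Genes below 50 counts in both libraries could not be called.

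Of 15 genes of granule storage and processing, 14 had a row. On day 3 against day 0, 2 were called higher and 1 lower, on day 6 1 higher and none lower, and on day 9 1 higher and 2 lower. On each day 8 of these genes reached 50 counts, and the shares of all genes called higher and lower were 8.54 and 7.88% on day 3, 7.48 and 13.1% on day 6, and 10.7 and 10.4% on day 9. With 8 genes, counts of 0 to 2 are too small to be read against these shares. The list medians of log2 ratios were 0.50, 0.32 and 0.40 on days 3, 6 and 9, against -0.01, 0.03 and 0.00 over all genes with a mean of at least 10 counts. Ctsl1, the lysosomal protease cathepsin L, was 2.82-fold (2.53 to 3.15) higher on day 3 and 2.29-fold (2.05 to 2.57) higher on day 6. Cd63, a tetraspanin of granule and lysosome membranes, was 2.16-fold (1.94 to 2.41) higher on day 3 and 2.01-fold (1.80 to 2.24) higher on day 9. Rab27a, a small GTPase of granule transport also used in pigment cells, was 2.46-fold (1.90 to 3.24) lower on day 3 and 2.52-fold (1.93 to 3.34) lower on day 9. Stxbp2, a syntaxin-binding protein of granule release, was 2.07-fold (1.40 to 3.14) lower on day 9. Ctsc, the dipeptidyl peptidase that activates the pro-enzymes of chymases and tryptases, had 258, 271, 279 and 374 counts and was not called. Srgn, the serglycin core protein to which the proteases bind, had 24, 35, 30 and 37 counts.

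All 8 genes of lipid mediator synthesis had a row, and their medians were 0.07, 0.50 and 0.44 on days 3, 6 and 9 against day 0. On each day 5 reached 50 counts. Of these, 1 was called higher and 1 lower on day 3, 2 higher on day 6 and 1 higher on day 9. The shares of all genes called higher and lower were 8.54 and 7.88%, 7.48 and 13.1%, and 10.7 and 10.4%. A list of 5 genes is too small to be read against them. Hpgds, the prostaglandin D synthase of mast cells and other blood cells, had 65, 20, 49 and 31 counts, 3.21-fold (1.95 to 5.69) lower on day 3 than on day 0. It thus stood lowest in the library where Cpa3 stood highest. Alox5ap, the partner protein of 5-lipoxygenase, was 2.70-fold (2.29 to 3.20) higher on day 3 and 2.49-fold (2.11 to 2.96) higher on day 6. Alox5, the 5-lipoxygenase itself, was 2.02-fold (1.55 to 2.65) higher on day 6, and Ptgs1, cyclooxygenase 1, was 2.15-fold (1.60 to 2.95) higher on day 9. Of 9 transcription factors, 7 had a row and none reached 50 counts, so no call was possible. Spi1, the myeloid factor PU.1, had 15, 35, 30 and 15 counts, and Gata2 had 17, 30, 16 and 12.

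Ligands that feed or attract mast cells had 6 of 11 genes with a row. On each later day 2 were called higher and none lower, among 4, 4 and 3 genes that reached 50 counts on days 3, 6 and 9, where 8.54, 7.48 and 10.7% of all genes were called higher. Their log2 ratios had medians of 1.35, 1.06 and 1.04 on days 3, 6 and 9. Cxcl12, a chemokine of stromal cells, had 43, 127, 100 and 153 counts, 2.92-fold (2.06 to 4.26), 2.38-fold (1.66 to 3.51) and 3.70-fold (2.65 to 5.37) higher on days 3, 6 and 9 than on day 0. Il33, an alarm cytokine that mast cells sense, was 2.55-fold (1.75 to 3.84) higher on day 3 and 2.06-fold (1.38 to 3.15) higher on day 9. Kitlg, which encodes stem cell factor, had 25, 50, 51 and 33 counts and was 2.08-fold (1.28 to 3.54) higher on day 6. Of 11 protease inhibitors, 10 had a row, with medians of -0.26, 0.29 and 0.34 on days 3, 6 and 9. Among 7, 8 and 8 that reached 50 counts, 1 was called higher on day 3, 1 higher and 1 lower on day 6, and none on day 9. The shares of all genes called lower were 7.88, 13.1 and 10.4%, beside those called higher given above. These counts are too small to be read against the shares. Serping1, the C1 inhibitor, was 2.53-fold (2.22 to 2.89) higher on day 3. Serpina3n, a serpin of serine proteases, had 244, 127, 575 and 120 counts and was called against day 0 on day 6 alone, 2.42-fold (2.09 to 2.83) higher. Serpinb1a, whose product blocks elastase and chymase, was 2.30-fold (1.72 to 3.11) lower on day 6. Of 13 substrates and targets, 9 had a row, with medians of 0.65, -0.02 and 0.77, and 3, 3 and 4 reached 50 counts on days 3, 6 and 9. Mmp2, gelatinase A, was the only one called against day 0, where 8.54, 7.48 and 10.7% of all genes were called higher. It was 5.77-fold (5.39 to 6.18), 5.24-fold (4.90 to 5.62) and 3.97-fold (3.70 to 4.27) higher on days 3, 6 and 9 than on day 0. Of 10 proteases of other leukocytes, such as granzymes and neutrophil elastase, Gzmm alone had a row, with 2, 0, 0 and 2 counts.

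Markers of mast cells other than the proteases did not share the day 3 peak as a sum. The 6 of 8 with a row (Fcer1a, Ms4a2, Hdc, Srgn, Hpgds and Gata2) summed to 126, 124, 115 and 107 counts, and the sum on day 3 had a ratio to day 0 of 0.979 (0.758 to 1.26). Hpgds had 65, 20, 49 and 31 of these counts, the most of the 6 on days 0 and 6 but not on days 3 and 9. Without it the sums were 61, 104, 66 and 76, and day 3 was 1.69-fold (1.22 to 2.37) higher than day 0. Of 6 basophil markers, Mcpt8 and Prss34 among them, none had a row.

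Marker sums of some other cell types were also highest on day 3, while those of others were highest on other days. The 7 fibroblast markers summed to 20541, 67638, 51531 and 48015 counts and were 3.28-fold (3.23 to 3.33) higher on day 3 than on day 0. Macrophage markers, 7 of 8 with a row, summed to 688, 1491, 1150 and 1072, 2.16-fold (1.97 to 2.36) higher on day 3. The adipocyte sum was 302, 1206, 471 and 810 from 4 of 5 markers and the Schwann cell sum 457, 809, 531 and 503 from all 5, both highest on day 3 as the proteases were. Neutrophil markers, 4 of 8 with a row, summed to 82, 60, 46 and 1013. All of the day 9 counts came from S100a8 (122) and S100a9 (891). Ngp, with 9, 0, 0 and 0 counts, and Csf3r, with 0, 0, 2 and 0, had none on day 9. Mpo and Elane had no row. Endothelial markers, 5 of 6 with a row, summed to 141, 157, 246 and 155, and those of T and NK cells, 3 of 8 with a row, to 10, 7, 0 and 10. Keratinocyte markers, 5 of 6 with a row, summed to 59177, 47853, 73930 and 53398, with Krt1 and Krt10 high in every library as skin carries them and Krt5 without a row. Skeletal muscle markers, 5 of 6 with a row, summed to 3766, 8132, 0 and 7076, and red blood cell markers, 2 of 4 with a row, to 35, 1529, 104 and 595. The part of these marker differences in the protease ratios was not tested.

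**Figure D5:**
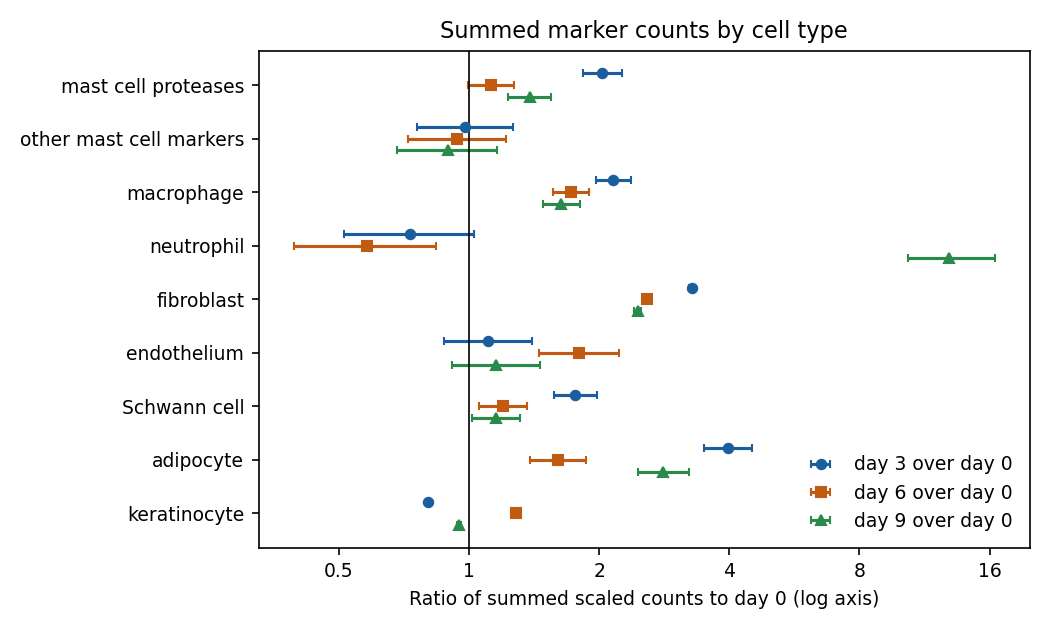
Ratios of summed scaled counts to day 0 (horizontal axis, logarithmic) for the 5 mast cell proteases and for the marker lists of 8 cell groups (vertical axis), with 95% counting intervals, for days 3, 6 and 9. The protease sum lies at 2.03, 1.12 and 1.38, and the fibroblast sum at 3.28, 2.58 and 2.45. The other mast cell markers lie at 0.979, 0.94 and 0.892, where without Hpgds day 3 would lie at 1.69. The neutrophil sum on day 9 holds counts of S100a8 and S100a9 alone.

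Genes whose day pattern lay nearest to Cpa3 and to Cma1 were found among 4057 others with a symbol and a mean of at least 50 counts. Likeness was the root mean square distance between log2 scaled counts over the 4 libraries, each gene centred on its own mean, and is a description over 4 points. Nearest to Cpa3 were Ephx1, an epoxide hydrolase, at a distance of 0.045 with 126, 503, 219 and 290 counts, and Dpep1, a dipeptidase, at 0.053. Rcsd1, Srpx, Postn (the matrix protein periostin), Col1a2 (a chain of type I collagen), LOC100362543 and Fkbp7 followed, at distances of 0.081 to 0.13. Of the other proteases, Tpsab1 ranked 16 at 0.19 and Mcpt1l1 ranked 163 at 0.41, while Tpsb2 ranked 2367 and Cma1 2883. Nearest to Cma1, with both tags counted, was N4bp3, a binding partner of the ligase Nedd4, at 0.024 with 75, 95, 42 and 31 counts. Fasn, the fatty acid synthase, LOC100909788, Mgll (monoglyceride lipase), Cidea and Plin2 (both proteins of lipid droplets) and Pld3 were also among the nearest, at 0.15 to 0.23. Tpsb2 ranked 30 for Cma1 at 0.31. The Cma1 pattern depends on its second-site tag, so these neighbours belong to the gene count as deposited.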

How the data were processed

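Hindlimb footpad skin was measured in 4 libraries, 1 for each collection day, grouped by sample title. The deposited gene counts are whole numbers, per the file headers copies of assigned tags, and the authors' sums leave out tags with fewer than 2 copies. The deposited column headed TPM holds CPM values, which the authors scaled to the total of tags with 2 or more copies. It served in an alternative only. In every library 0 gene counts departed from their tag sums, and 0 CPM values departed from that scaling beyond rounding (a tolerance of 0.006 CPM, widened by a millionth of the value). The assembly was Rnor_6.0, per the submitters' processing notes, while the aligner and its mismatch setting are not stated in the labels or files.

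Library sizes were gene count totals (56.9 to 60.6% of the tags seen at least 2 times) multiplied by TMM factors from edgeR 4.0.16, which lay between 0.978 and 1.02. Ratios used a prior count of 0.5, and exact 95% Clopper-Pearson intervals came from both counts with scipy 1.17.1. Sequenced tags are not independent molecules, so intervals and floors cover counting error only. Neither edgeR's nor DESeq2's tests can be run on 1 library a day. The size rule was tried on counts drawn with known ratios and counting error alone. That trial cannot show how the rule behaves under spread between animals. Alternatives changed the scaling (with DESeq2 1.42.0 size factors among them), prior, count minimum, threshold and tags counted. All 5 genes were named; of each list, genes past the rule against day 0, or else the 2 with the highest counts. Some further genes (Ctsc, Srgn, Fcer1a, Ms4a2 and Kit) were named after their values were seen. Of the 8 genes nearest to Cpa3 and the 8 nearest to Cma1, 1 is not reported here. The 5 genes and the lists were chosen with earlier results of these data known.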

Additional observations from a re-analysis of the deposited data

How the results depend on the processing

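By the rule, 2, 0 and 2 of the 5 protease genes passed on days 3, 6 and 9 against day 0, 2 on day 6 against day 3, 0 on day 9 against day 6 and 1 on day 9 against day 3. With a minimum of 200 counts in the higher library these counts were 1 on day 3 against day 0, 1 on day 9 against day 0, 1 on day 6 against day 3 and 0 on day 9 against day 3, since fewer genes reach that minimum. With a threshold of 1.5-fold they were 3 on day 3 against day 0, 4 on day 6 against day 0, 4 on day 9 against day 0, 5 on day 6 against day 3 and 3 on day 9 against day 3. These counts pool calls of higher and lower. On day 6 against day 0, Cpa3 and Tpsab1 were higher while Cma1 and Tpsb2 were lower. No share of all genes is given for a changed setting, so these counts do not set the proteases apart from other genes. With the most abundant tag of each gene alone, 3 passed on day 3 against day 0 and 1 on day 9 against day 0, because the second-site tag of Cma1 was then not counted. Under that setting the Cma1 ratios to day 0 were 2.5, 1.03 and 0.857 on days 3, 6 and 9, against 1.29, 0.567 and 0.441 with both tags.

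The summed ratio of day 9 to day 3 was 0.680, and 0.592 without Mcpt1l1, the gene with the highest count. Every other summed ratio stayed within its counting interval under each alternative for scaling, prior count, tags and members. No ratio that passed the rule changed direction under any alternative run. No replicate could be left out, since each day had 1 library. No paired analysis was possible because the groups have 1 library each. Depth limits the receptor, transcription factor and other leukocyte protease genes, since most had fewer than 50 counts in every library or no row.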

Other observations

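Copies of the protease tags with 1 base changed after the CATG anchor were few in the lists of all sequenced tags. Each tag has 51 such variants. Summed over the 4 libraries they had 19 copies for the first-site tag of Cpa3, 14 for that of Mcpt1l1, 6 for that of Cma1, 4 for that of Tpsab1 and 2 for that of Tpsb2, and no variant had more than 3 copies in a library. The second-site tag of Cma1 had 0 copies of any such variant in the 4 lists.

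A second tag that is frequent on day 0 and rare later was uncommon among all genes. The thresholds were set after the Cma1 values were seen. Of 4285 genes whose 2 most abundant tags summed to at least 30 copies in every library, 10 had at least 25% of these copies in the second tag on day 0 and at most 10% on each later day, which is 0.233%. Cma1 is 1 of the 10.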
